A study of Homo sapiens with 4 samples.

Results

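The regions described here are the short FLAG peaks that lie at the ends of protein-coding genes. A peak was taken when it lay on chromosomes 1 to 22 or X, was under 450 bp long, and its summit was no more than 1 kb from an end, upstream or downstream, of a RefSeq GRCh38 protein-coding gene. This gave 305 of the 9466 FLAG peaks, at the ends of 326 of 19817 protein-coding genes (1.65%). They made up 3.72% of the 8204 FLAG peaks under 450 bp on these chromosomes (exact 95% binomial interval 3.32 to 4.15%). Because the rule fixes the width and the position of these peaks, neither is a finding.

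The peaks come from A549 cells, a lung adenocarcinoma line, stably transduced with retroviral ATOH8 and read by ChIP-seq in 4 libraries: a FLAG ChIP, a SMAD3 ChIP and an input of sonicated chromatin for each. Every library carried the ATOH8 retrovirus, and cells without it are not analysed here. The FLAG antibody is taken here to read tagged ATOH8, although the labels do not describe the tag. There was 1 library per group, so no value below has a replicate, no difference between conditions is tested, and intervals cover counting error only. The FLAG ChIP held 17133946 tags after filtering and its input 20785894. The SMAD3 ChIP held 16857119 and its input 17215727.

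ATOH8 belongs to the basic helix-loop-helix (bHLH) factors. These bind DNA as dimers at short motifs called E-boxes, written CANNTG, and act both at promoters, the sequence around a gene's start, and at distant enhancers. SMAD3 enters the nucleus after TGF-beta receptor activation and binds short CAGAC elements together with partner factors. A peak at a gene start may lie at a promoter, whereas a peak at the 3′ end lies where transcription finishes.

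The clearest promoter sequences under these peaks are shown before the values. Of the 305 peaks, 29 had their summit inside a RefSeq promoter window of 300 bases (250 before to 50 after a listed start) for which sequence was at hand, and the 10 with the highest fold enrichment are printed. Each runs 5′ to 3′ along its gene's strand (GRCh38.p14, RefSeq), up to 75 bases to either side of the summit and within the window, and E-boxes (CANNTG) are in capitals.

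ATP5MJ, chr14:103921480-103921588, minus strand: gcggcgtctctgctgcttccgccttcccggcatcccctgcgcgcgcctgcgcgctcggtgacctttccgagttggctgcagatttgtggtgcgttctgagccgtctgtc

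PDLIM5, chr4:94451838-94451988, plus strand: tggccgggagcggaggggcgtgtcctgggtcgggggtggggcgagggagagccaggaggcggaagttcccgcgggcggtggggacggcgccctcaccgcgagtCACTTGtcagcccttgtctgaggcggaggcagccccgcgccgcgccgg

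TOMM20L, chr14:58395680-58395811, plus strand: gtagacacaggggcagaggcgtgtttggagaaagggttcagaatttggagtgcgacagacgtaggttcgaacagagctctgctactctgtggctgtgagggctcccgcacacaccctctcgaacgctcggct

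PLOD2, chr3:146161334-146161434, minus strand: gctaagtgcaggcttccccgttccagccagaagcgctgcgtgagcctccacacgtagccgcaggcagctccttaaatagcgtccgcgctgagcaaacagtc

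GLRA1, chr5:151924802-151924931, minus strand: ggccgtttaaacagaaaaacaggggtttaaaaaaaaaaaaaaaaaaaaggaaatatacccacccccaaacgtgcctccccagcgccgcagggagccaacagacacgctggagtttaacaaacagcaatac

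THSD4, chr15:71096856-71096943, plus strand: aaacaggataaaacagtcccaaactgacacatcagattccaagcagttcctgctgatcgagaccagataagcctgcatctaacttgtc

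VASH2, chr1:212950291-212950375, plus strand: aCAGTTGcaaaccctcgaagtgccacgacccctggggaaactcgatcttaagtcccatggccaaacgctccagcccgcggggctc

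C4orf36, chr4:86936300-86936450, minus strand: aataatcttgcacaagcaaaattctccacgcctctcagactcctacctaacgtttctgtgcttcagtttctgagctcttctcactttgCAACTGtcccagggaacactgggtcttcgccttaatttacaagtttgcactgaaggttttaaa

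CNR1, chr6:88166375-88166525, minus strand: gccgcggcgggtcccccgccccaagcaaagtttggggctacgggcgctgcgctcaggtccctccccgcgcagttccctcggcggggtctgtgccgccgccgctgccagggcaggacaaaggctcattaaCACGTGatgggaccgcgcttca

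ARPC1A, chr7:99325867-99325947, plus strand: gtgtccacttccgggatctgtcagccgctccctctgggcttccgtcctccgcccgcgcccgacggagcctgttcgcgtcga

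Only 4 of these 10 stretches (PDLIM5, VASH2, C4orf36 and CNR1) held an E-box, and each held 1. That of VASH2, CAGTTG, was centred 5.5 bases from the summit. In C4orf36 a CAACTG lay 15.5 bases away, in PDLIM5 a CACTTG 30.5 bases and in CNR1 a CACGTG 56.5 bases. ATP5MJ, TOMM20L, PLOD2, GLRA1, THSD4 and ARPC1A had no such letters within the printed stretch. Base composition ran from 43.0% G and C in C4orf36 to 76.8% in PDLIM5. The stretches shared neither an E-box nor a composition.

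Over whole windows the picture was similar. The 29 summits fell in 33 promoter windows, since 2 genes had a second window over the summit and 2 summits also lay in a window of a neighbouring gene. Of these 33, 23 held an E-box (69.7%), against 65.1% of all 22131 windows of the same length. Read by peak, 20 of 29 had an E-box in a window (69.0%, 95% interval 49.2 to 84.7%). CAGCTG, a form bound by many bHLH dimers, stood in 9 of 33 windows (27.3%, all windows 18.0%), and CAGATG or CATCTG, the 2 strands of the form typical of atonal-type factors, in 2 (6.06%, all windows 12.2%). CAGAC or its complement GTCTG stood in 23 windows (69.7%, all windows 44.9%) and GGGCGG or CCGCCC, the GC box, in 25 (75.8%, all windows 56.3%). The palindrome GTCTAGAC was in none of them, and in 0.217% of all windows. Motifs were searched on both strands, and each hexamer named here of the CANNTG form is counted among the E-boxes as well. Counting instead every window that a peak overlapped brought the CAGAC or GTCTG share down to 38 of 73 (52.1%), the GC box to 49 (67.1%) and the E-box to 48 (65.8%), all nearer to the shares over all windows. With 33 windows, these shares are descriptions and single out no motif.

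Promoter windows under a summit were richer in G and C than promoters in general. Their median was 67.7% G and C with 29 CpG dinucleotides, against 62.3% and 21 over all windows. Windows at 60% G and C or more made up 27 of 33 (81.8%), against 58.2% of all. Restricting both sides to such windows, a comparison chosen after seeing the data, gave CAGAC or GTCTG in 17 of 27 (63.0%, against 42.3%), the GC box in 23 of 27 (85.2%, against 80.2%) and an E-box in 18 of 27 (66.7%, against 57.7%). The part of base composition in where peaks were called was not tested.

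Most of the 305 peaks were weak. The pileup, that is the number of extended tags over the summit, had a median of 8 (range 5 to 34), and 207 peaks (67.9%) had 7 to 9 tags. The fold enrichment, the caller's ratio of pileup plus 1 to local input background plus 1, had a median of 3.14 (2.0 to 6.72). These per-peak values are the authors'. The input background implied by pileup and fold stood at its genome-wide floor of 1.53 tags in 82 peaks, where the fold follows from the tag count alone: 6 tags give 2.77, 7 give 3.16 and 8 give 3.56. Peaks of equal fold in such a series are tied and have no order.

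At gene ends 35 peaks (11.5%, 95% interval 8.12 to 15.6%) had a q under 0.05, against 21.4% of all FLAG peaks under 450 bp. Among those away from gene ends, the share was 10.8% inside protein-coding genes (294 of 2724) and 27.6% outside them. Gene-end peaks thus resembled those in gene bodies in this measure. Their median fold of 3.14 also lay next to the 3.16 of the peaks away from gene ends. High input background was rare at gene ends: 3 peaks (0.984%) stood at 5 tags or more, against 9.04% of the others, nearly all of which lay outside genes.

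**Figure D1:**
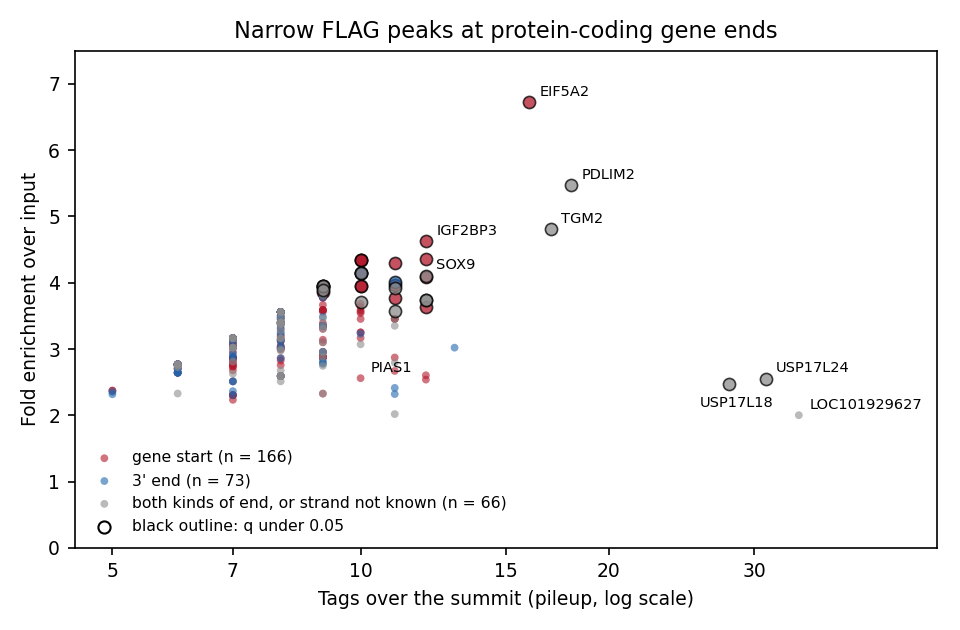
Fold enrichment over input (vertical axis, ratio) against tags over the summit (horizontal log axis) for the 305 narrow FLAG peaks at gene ends. Colours give the kind of gene end and black outlines a q under 0.05. Most points sit at 7 to 9 tags, EIF5A2, PDLIM2 and TGM2 stand above, and USP17L24, USP17L18 and LOC101929627 have many tags at low fold.

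Strand was used for 260 of the 326 genes, which separates gene starts from 3′ ends. Starts alone accounted for 166 peaks and 3′ ends alone for 73, so starts made up 69.5% of these 239 (95% interval 63.2 to 75.2%). In addition 5 peaks lay at both kinds of end, 4 of them at both ends of a single short gene and 1 at ends of different genes (ACLY and KLHL11), and for 61 no strand was used. The distribution of summits differed between both kinds of end. Within 500 bp of 15811 gene starts there were 110 pairs of a peak and a gene, 55 per bin of 500 bp, whereas bins 2 to 5 kb away held 18.25 on average (10 to 23 each), a ratio of 3.01. The bin just downstream of the start was the fullest, with 74 pairs, and the bin just upstream held 36. At 3′ ends, bins within 500 bp held 21.5 pairs each and bins 2 to 5 kb away 17.8, a ratio of 1.21.

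Narrow SMAD3 peaks had the same kind of profile at lower height, with 38 pairs per bin within 500 bp of starts against 19.75 further out (13 to 38 per bin, ratio 1.92), and a ratio of 0.854 at 3′ ends. The bin just downstream of starts held 44 SMAD3 pairs. The lists differ in the number of peaks and the difference between both antibodies was not tested.

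**Figure D2:**
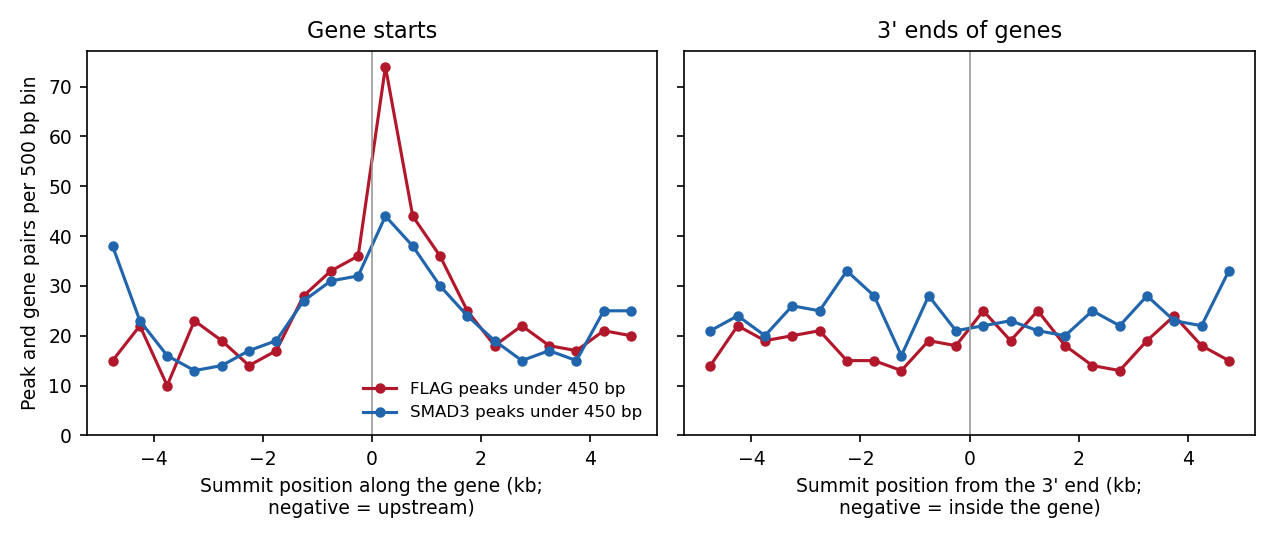
Number of pairs of a peak summit and a gene end per 500 bp bin (vertical axis) by position along the gene in kb (horizontal axis), around starts (left) and 3′ ends (right) of 15811 genes. FLAG pairs peak at 74 in the bin just downstream of the start, SMAD3 pairs at 44 in the same bin, and the bins within 500 bp of 3′ ends average 21.5 pairs in both lists.

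The share of peaks with low q was compared by kind of end. Of 166 peaks at starts 19 had a q under 0.05 (11.4%, 95% interval 7.03 to 17.3%), against 2 of 73 at 3′ ends (2.74%, 0.334 to 9.55%). The exact intervals overlap. Peaks at genes with no strand held a larger share than either, 14 of 61 (22.95%, 13.2 to 35.5%), so starts and 3′ ends can be compared for only 21 of the 35 peaks. Median folds were 3.15 and 3.09 at starts and 3′ ends. The 2 peaks at 3′ ends lay beyond PIK3R1 and CEP112.

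The 35 peaks with a q under 0.05 lay at 36 genes, 0.182% of all protein-coding genes. EIF5A2 stood at the top. It encodes an isoform of the translation factor eIF5A, which helps ribosomes through difficult peptide bonds. Its peak (chromosome 3, 170909384 to 170909798, hg38) held 16 tags on a background of 1.53, a fold of 6.72 with a −log10 q of 7.48. The summit lay 969 bp upstream of the gene's start, outside any protein-coding gene.

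PDLIM2, a PDZ and LIM domain protein of the actin cytoskeleton, followed with 18 tags on 2.47 and a fold of 5.47 (chromosome 8, 22597543 to 22597817, −log10 q of 6.17). TGM2 encodes tissue transglutaminase, which cross-links proteins. Its peak lay 66 bp inside the gene's end with the higher coordinate and held 17 tags on 2.74, a fold of 4.81 (chromosome 20, 38168259 to 38168582, −log10 q of 4.71). These were the only 3 peaks with a −log10 q above 4 at gene ends. IGF2BP3, an RNA-binding protein of fetal tissues and tumours, had 12 tags on 1.81 (fold 4.63) with the summit 148 bp downstream of its start.

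Below these the peaks crowded between folds of 3.57 and 4.35, except for those at USP17L18 and USP17L24. PTGER2, the EP2 receptor of prostaglandin E2, had 12 tags and a fold of 4.35, 322 bp into the gene. ATP5MJ, a small subunit of the mitochondrial ATP synthase, had 10 tags (4.35-fold) with the summit 16 bp from the start. CCSER2 and PIK3CB had the same 10 tags and fold. PIK3CB encodes p110-beta, a catalytic subunit of phosphoinositide 3-kinase, and PIK3R1 its regulatory partner p85-alpha. At PIK3R1 the peak lay 714 bp past the 3′ end with 10 tags and a fold of 4.15. Both genes of this enzyme therefore had a peak with a q under 0.05, at opposite kinds of end.

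Further peaks with a q under 0.05 fell at genes of many functions. SOX9 encodes a transcription factor of cartilage and of distal lung progenitors, and its peak held 12 tags (4.11-fold) 302 bp outside the gene's end with the higher coordinate. A peak of 12 tags (4.08-fold) had its summit 220 bp inside BRAP, a ubiquitin ligase of the RAS pathway, and 317 bp upstream of ACAD10, of the acyl-CoA dehydrogenase family. The starts of these genes are 97 bp apart on opposite strands. PLOD2, a lysyl hydroxylase of collagen, had 10 tags at 3.95-fold. FKBP3, a prolyl isomerase, had 9 tags at 3.92-fold, and GLRA1, a glycine receptor subunit, 9 tags at 3.86-fold. VASH2, a tubulin carboxypeptidase, had 12 tags at 3.63-fold.

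RBPMS, which like IGF2BP3 encodes a protein that binds RNA, had 10 tags at 4.15-fold. Further genes among the 36 were CCSER2, OR56B1, IQSEC3 (an exchange factor of ARF GTPases), LOC124905115, CEP112, MARVELD1, WFDC11, SYCE3 (a synaptonemal complex protein), PDLIM5, TOMM20L, SMTNL2, TMED4 (a cargo protein of the early secretory pathway), THSD4, FAM90A8, FAM90A10, DPY19L4, SH2D4A, USP17L18 and USP17L24, at folds of 2.48 to 4.35 and with 9 to 31 tags.

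**Figure D3:**
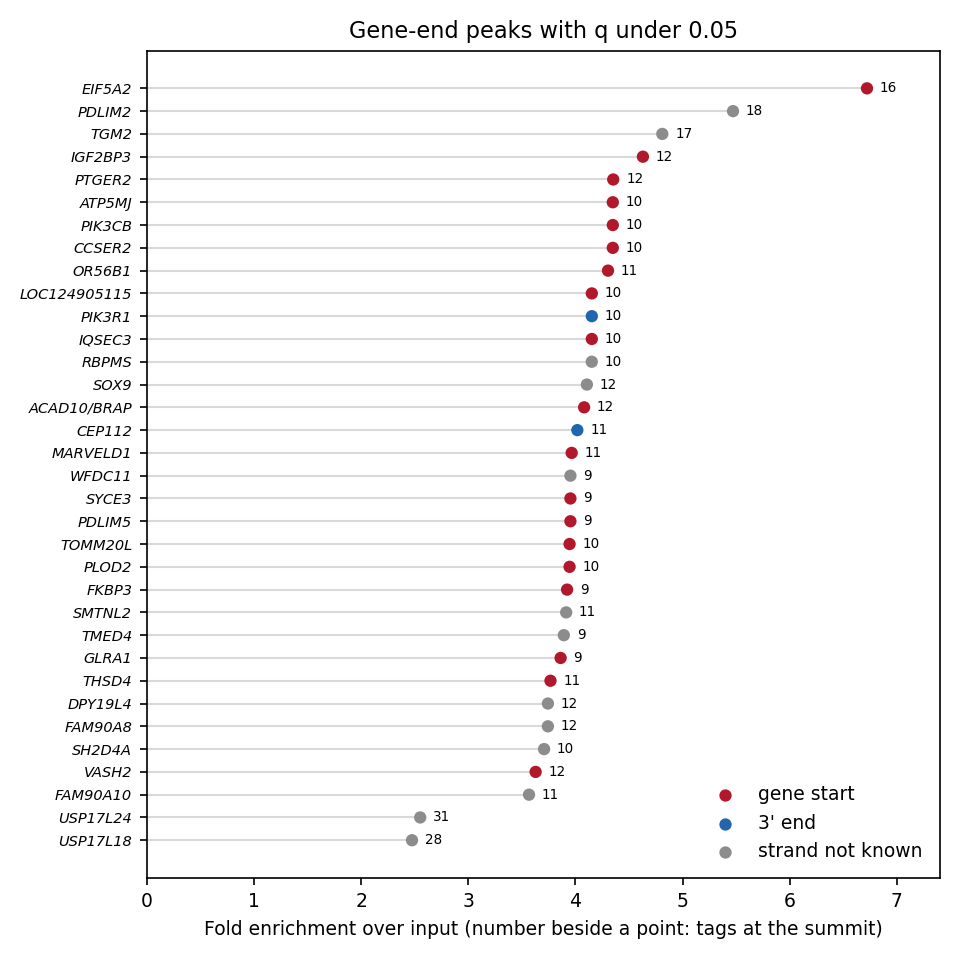
Gene-end peaks with a q under 0.05 (34 of the 35), 1 row per peak, with fold enrichment on the horizontal axis from 0 and the tag count beside each point. Red marks gene starts, blue 3′ ends and grey genes whose strand was not used. EIF5A2 reaches 6.72 and most others lie between 3.57 and 4.35, while the USP17L18 and USP17L24 peaks have 28 and 31 tags at 2.48 and 2.55.

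Genes with near-identical copies need separate reading, because short reads may not be assigned to a single copy. The peaks with the most tags were among them. USP17L24 and USP17L18, deubiquitinase genes of a tandem array on chromosome 4, had 31 and 28 tags on implied backgrounds of 11.5 and 10.7, and folds of 2.55 and 2.48. LOC101929627, on chromosome 8, had 34 tags on 16.5 (fold 2.0, −log10 q of 0.699). These are the 3 peaks with a background of 5 tags or more. FAM90A8 (12 tags, 3.74-fold) and FAM90A10 (11 tags, 3.57-fold), also multicopy genes on chromosome 8, had backgrounds of 2.47 and 2.36. SSX2 had 6 tags and TBC1D3 7, both with a −log10 q of 0. In all, 6 of 542 genes of cancer-testis and segmentally duplicated families had a peak (1.11%, all genes 1.65%).

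Gene families were counted by 31 lists built from symbols, and a gene may stand in more than 1 list. A list can miss genes of its family, or hold a gene only for its symbol. Each count is therefore that of the list and not of the whole family. Of the 326 genes 160 were in a list and 166 in none. Intervals are exact 95% binomial intervals on the count, to be read against the 1.65% of all protein-coding genes, and no list was tested. In most lists the interval included that share. It lay above it only for ubiquitin ligases and deubiquitinases, and below it only for cell adhesion and extracellular matrix genes. Neither call held with summits within 3 kb, where these lists had 24 of 577 (4.16%, 2.68 to 6.13%) and 12 of 444 (2.70%, 1.40 to 4.67%) against 3.43% of all genes. With peaks of any width the adhesion interval also included the share of all genes (0.676%, 0.140 to 1.96%, against 1.80%). At that setting the ubiquitin list stayed above it (3.47%, 2.13 to 5.30%) and translation factors moved above it (5.56%, 2.07 to 11.7%). At 3 kb the intervals of chromatin modifiers and of the TGF-beta and BMP list lay above 3.43%. That of olfactory receptors lay below it (1.29%, 0.419 to 2.97%). Each of the 31 intervals was taken alone, with no adjustment for their number.

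**Figure D4:**
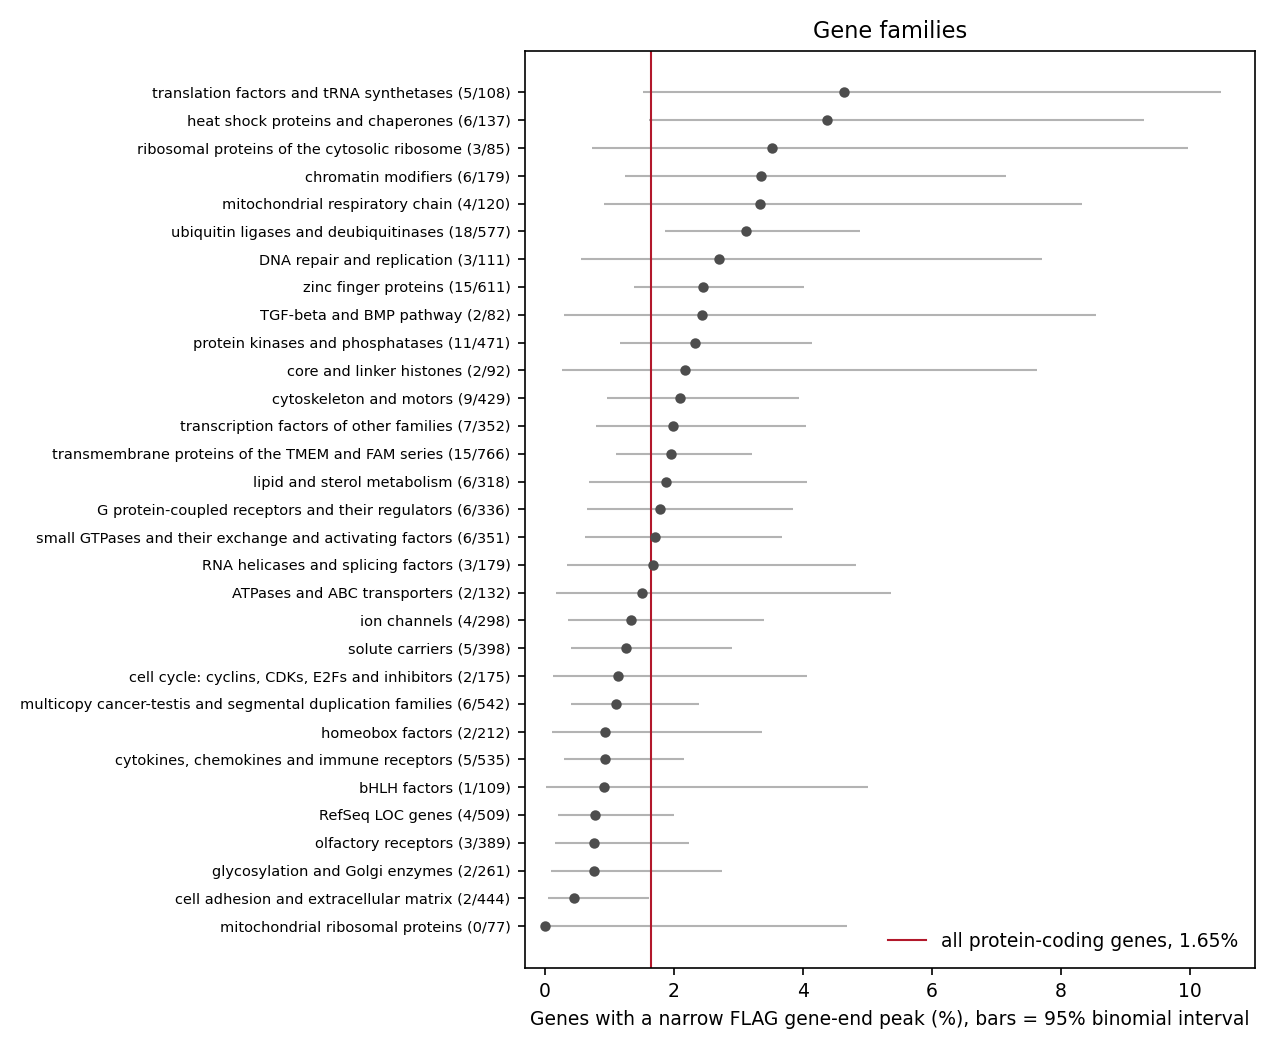
Share of genes with a narrow FLAG gene-end peak in each of 31 gene lists (horizontal axis, percent, with exact 95% binomial intervals as bars), with counts in brackets. The red line marks 1.65%, the share over all protein-coding genes. Points run from 0 of 77 mitochondrial ribosomal proteins to 5 of 108 translation factors, and nearly all bars cross the line.

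Ubiquitin enzymes attach or remove ubiquitin and so help set which proteins are degraded. The list for them also takes in adaptors and proteasome genes. Of its 577 genes 18 had a peak (3.12%, 1.86 to 4.89%), 11 at the start and 5 at the 3′ end. UBE2N, the conjugating enzyme that builds lysine-63 chains, had 11 tags at 3.46-fold. SOCS4 had 8 tags (3.40-fold) and SOCS3, a name chosen after its value was seen, 9 tags (2.96-fold), both inhibitors of cytokine signalling. FBXW4 had 10 tags at 3.25-fold, and KLHL9, a cullin adaptor, 7 tags at 3.16-fold with the summit 14 bp from the start. RNF126 and USP34 had 7 tags each at 3.16-fold, at the 3′ end. The only q under 0.05 in this list belonged to USP17L18 and USP17L24, so without that array the list had no such peak. BRAP, a ubiquitin ligase that the list does not hold, shared a peak with a q under 0.05 with ACAD10 (12 tags, 4.08-fold). Leaving out all USP17L genes, an alternative chosen after seeing the data, gave 16 of 552 (2.90%, 1.67 to 4.66%), with the lower bound close to the share of all genes. UBE2G1 had 2 peaks around its start, with 7 and 8 tags (2.77- and 2.59-fold).

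Genes of protein synthesis and folding were represented by single members. Translation factors and tRNA synthetases had 5 of 108 (4.63%, 1.52 to 10.5%): EIF5A2, EIF2S3, the gamma subunit of the initiator tRNA carrier (8 tags, 3.56-fold), EIF4EBP2, a repressor of cap-dependent initiation (8 tags, 3.30-fold), TARS1, threonyl-tRNA synthetase (7 tags, 3.16-fold), and EIF3C (9 tags, 2.96-fold). EIF3C has a near-identical copy in the genome. Heat shock proteins and chaperones had 6 of 137 (4.38%, 1.62 to 9.29%). They were FKBP3, DNAJB9, a chaperone of the endoplasmic reticulum (9 tags, 3.59-fold), PDIA6, a disulfide isomerase (8 tags, 3.32-fold), DNAJC1, DNAJB2 and BAG2. Ribosomal proteins had RPS27, RPS10 and RPS19 of 85 (3.53%, 0.734 to 9.97%), with folds of 2.67 to 3.25, and mitochondrial ribosomal proteins 0 of 77 (0 to 4.68%).

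For nuclear proteins, each interval included the 1.65% of all genes, although that of chromatin modifiers lay above the share with summits within 3 kb. Zinc finger proteins, the largest family of DNA-binding factors, had 15 of 611 (2.45%, 1.38 to 4.02%). ZNF879 (9 tags, 3.78-fold), ZNF367 (8 tags, 3.56-fold) and ZBTB37 (8 tags, 3.50-fold) led, followed by ZBTB25, ZNF98 and ZNF710. The summit assigned to ZBTB25 lay 462 bp from its start but 19 bp upstream of a listed start of ZBTB1. None of the 15 had a q under 0.05. Chromatin modifiers had 6 of 179 (3.35%, 1.24 to 7.15%), 5 of them at starts. These were CHD1L (9 tags, 3.78-fold) and CHD2 (9 tags, 3.30-fold), both chromatin remodellers, SMARCD2, a SWI/SNF subunit (10 tags, 3.17-fold), KDM5A, a histone demethylase (6 tags, 2.70-fold), PHF20, and HDAC2, a histone deacetylase with its peak at the 3′ end (7 tags, 3.16-fold). Core and linker histones had 2 of 92, among them H2AC18 (9 tags, 3.30-fold). RNA helicases and splicing factors had RBM25, HNRNPC and LSM14A of 179 (1.68%). That list does not hold the splicing activators TRA2A and TRA2B, which also had peaks (3.27- and 3.40-fold).

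For transcription factors too, each interval included 1.65%. Homeobox factors had 2 of 212 (0.943%, 0.114 to 3.37%), among them MNX1 (8 tags, 3.14-fold). The bHLH family of ATOH8 had 1 member of 109 (0.917%, 0.0232 to 5.01%), and 3 (2.75%, 0.571 to 7.83%) both with peaks of any width and with summits within 3 kb. That was SREBF1, the activator of sterol and fatty acid synthesis, with 2 peaks around its start at 2.86-fold (8 tags) and 2.88-fold (9 tags) and a −log10 q of at most 0.261. Other factor families had 7 of 352 (1.99%), with SOX9, then ATF7IP2 and FOXP2 at 8 tags and 3.56-fold, then JUND, NFATC2 and ESR2 at folds of 2.75 to 2.87, and SOX18.

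The study's title names the cell cycle and SMAD3, a mediator of TGF-beta signals, so both pathways were counted. The TGF-beta and BMP list had BMPER and PIAS1 of 82 (2.44%, 0.297 to 8.53%). With summits within 3 kb it had 7 of 82 (8.54%, 3.50 to 16.8%) against 3.43% of all genes, so its share depended on the distance limit. BMPER, an extracellular modulator of BMP ligands, had 8 tags at 2.83-fold. PIAS1, a SUMO ligase that also acts on SMADs, had 10 tags on a background of 3.30, a fold of 2.56. Cell cycle genes had 2 of 175 (1.14%, 0.139 to 4.07%). CDKN1B encodes the CDK inhibitor p27, and its peak at the 3′ end held 5 tags (2.35-fold, −log10 q of 0). The peak assigned to CCND3, cyclin D3, held 8 tags (3.56-fold) and lay 554 bp from its start but 65 bp from an end of TAF8, a subunit of TFIID. DNA repair and replication genes had RAD51AP2, ERCC6L2 and LIG1 (DNA ligase I) of 111 (2.70%), all at starts with folds of 2.76 to 3.37. All of the peaks named in these 3 lists had a q above 0.05.

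Protein kinases and phosphatases had 11 of 471 (2.34%, 1.17 to 4.14%), 7 at the start and 2 at the 3′ end. MAP2K4, a JNK pathway kinase, and STK17A had 8 tags and 3.56-fold each, both at the 3′ end, and at STK17A the summit lay 10 bp from it. Among metal-dependent phosphatases, PPM1D, a p53-induced phosphatase, had 11 tags (3.46-fold), PPM1H 8 (3.40-fold) and PPM1E 7 (2.87-fold), all at starts. RPS6KA5 had 10 tags at 3.25-fold and STK10 8 at 2.99-fold. G protein-coupled receptors and their regulators had 6 of 336 (1.79%). These were PTGER2, GNB2 (9 tags, 3.39-fold), PTGER4, the EP4 receptor of prostaglandin E2 (7 tags, 2.95-fold), GNGT1, RGS10 and ARRB2. The cannabinoid receptor CNR1 (8 tags, 3.56-fold) also had a peak but is not in this list. The list of small GTPases and their regulators had 6 of 351 (1.71%). Within it RASSF10 (9 tags, 3.46-fold) and RHOV (8 tags, 3.40-fold) led, with ASAP2, RRAS, RAB11FIP3 and TBC1D3. IQSEC3, an exchange factor with a higher fold (10 tags, 4.15-fold), is not in this list.

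Cytoskeletal and motor genes had 9 of 429 (2.10%, 0.964 to 3.95%). The PDZ-LIM proteins PDLIM2 and PDLIM5 (9 tags, 3.95-fold, 29 bp upstream of the start) both had a q under 0.05. TUBB8, a tubulin (10 tags, 3.59-fold), DES, the muscle filament desmin (8 tags, 3.56-fold), ARPC1A, an ARP2/3 subunit (10 tags, 3.45-fold), and IFT20 followed. The adhesion and matrix list had ITGB3, an integrin subunit (9 tags, 3.80-fold), and PCDH7, a protocadherin (7 tags, 3.16-fold), of 444 (0.450%, 0.0546 to 1.62%). MADCAM1, an adhesion molecule that the list built from symbols does not hold, had a peak of 7 tags (2.30-fold) at its start. With 3 genes of 444 the upper bound is 1.96%, above the 1.65% of all genes. The list's place below that share therefore depends on such omissions. The list of cytokines, chemokines and immune receptors had 5 of 535 (0.935%): IL12A, IFNA5, TNFAIP1, CLEC2B and CD59, at folds of 2.59 to 3.40. TNFAIP1, placed there by its symbol, shared its peak with IFT20.

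For metabolic and membrane genes, each interval included 1.65%. Lipid and sterol metabolism had 6 of 318 (1.89%): ACAD10, the thioesterases ACOT6 (3.48-fold) and ACOT8 (3.01-fold), CYP24A1, the vitamin D hydroxylase (11 tags, 3.35-fold), PLD5 and LPIN3. The list of respiratory complexes and mitochondrial import had 4 of 120 (3.33%, 0.916 to 8.31%). TOMM20L, from the import part of the list, was the only member with a q under 0.05. The others were cytochrome c (CYCS, 7 tags, 3.16-fold, at the 3′ end), COX6A1, a subunit of cytochrome c oxidase (7 tags, 3.09-fold), and NDUFAF6. ATPases and ABC transporters had 2 of 132 (1.52%), ATP5MJ among them. Solute carriers had 5 of 398 (1.26%): SLC36A1 and SLC1A4, both amino acid transporters (3.59- and 3.56-fold), SLC22A5, the carnitine transporter, SLC25A51, and SLC2A3, a glucose transporter. Ion channels had 4 of 298 (1.34%), among them GLRA1, CFTR (8 tags, 3.48-fold, 859 bp upstream of the start) and ASIC1. Glycosylation and Golgi genes had TMED4 and B3GNT2 of 261 (0.766%).

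Olfactory receptors, which are hardly used outside the nose, had 3 members with a peak (0.771%, 0.159 to 2.24%): OR56B1 (11 tags, 4.30-fold, q under 0.05), OR8U3 (8 tags, 3.56-fold) and OR2C1 (5 tags, 2.32-fold). Genes named by feature or position (the TMEM, FAM, CCDC and open reading frame series) had 15 of 766 (1.96%), among them C4orf36, CCDC172 and CCDC186 at folds of 3.40 to 3.56. RefSeq genes named LOC had 4 of 509 (0.786%).

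Several members were paralogues or partners of each other, a reading made after the values were seen and not tested. TRA2A and TRA2B, both splicing activators, had 8 tags each at 3.27- and 3.40-fold. IGF2BP1, with 8 tags (3.16-fold), stood beside IGF2BP3. CLPP and CLPX, the protease and the ATPase of a single mitochondrial complex, had 8 and 9 tags (3.40- and 3.35-fold). The prostaglandin receptors PTGER2 and PTGER4 and the enzyme HPGD, which inactivates prostaglandins (8 tags, 3.56-fold, at the 3′ end), all had a peak. Other genes outside the lists were MCL1, an anti-apoptotic BCL2 relative (11 tags, 3.46-fold), CNR1, the cannabinoid receptor (8 tags, 3.56-fold), and DKK1, a WNT inhibitor (7 tags, 3.16-fold). Apart from PTGER2 and IGF2BP3, no peak named in this paragraph had a q under 0.05.

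Some peaks served several genes. At the ends of 2 or more protein-coding genes lay 23 peaks (7.54%, 95% interval 4.84 to 11.1%), and 12 lay at starts on opposite strands. These include ACAD10 and BRAP, BRCC3 with CMC4 and MTCP1 (9 tags, 3.78-fold), RPRD1B and TTI1 (10 tags, 3.63-fold, starts 290 bp apart), CCDC186 and TDRD1 (3.40-fold), and CCDC77 and KDM5A, whose starts lie 27 bp apart (6 tags, 2.70-fold). TAF8 and CCND3, and NUP210L and RPS27, shared a peak in other arrangements. For such a peak the tags cannot be given to either gene. Conversely 4 genes had 2 peaks. CEP112 had 11 tags (4.02-fold) at its 3′ end and 8 (3.21-fold) at its start, and DIO2, a deiodinase of thyroid hormone, 6 and 7 tags at its 3′ end and start. SREBF1 and UBE2G1 had both peaks at the start. Of all 305 peaks, 59 (19.3%) also lay within 1 kb of an end of an annotated gene that is not protein-coding, and 8 of these are among the 23 peaks shared by protein-coding genes.

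Overlap with SMAD3 was almost absent at these ends. A single peak, that of PIAS1, overlapped a SMAD3 peak by at least 1 bp (0.328% of 305, 95% interval 0.00830 to 1.81%). Its FLAG summit lay 401 bp downstream of the start and its SMAD3 summit 220 bp away. The SMAD3 peak held 7 tags at 3.07-fold with a −log10 q of 0, and the FLAG peak a −log10 q of 0.0732. Among narrow FLAG peaks inside genes but away from their ends, 0.477% overlapped a SMAD3 peak, and among those outside genes 3.13%. WSCD2 was the only other gene end with a SMAD3 summit within 1 kb, at 939 bp. Within 10 kb, 25 of the 305 peaks had a SMAD3 summit (8.20%), against 14.8% of narrow FLAG peaks away from gene ends.

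The genes at these ends carried further peaks in their bodies more often than other genes, and they were longer. A further FLAG peak lay inside 58 of 326 (17.8%) and a SMAD3 peak inside 75 (23%), against 11.3% and 11.1% of the other protein-coding genes. Their median length was 34909 bp against 24290 bp, and the part of length in this was not tested. The most further FLAG peaks lay in THSD4 (5), CFTR and SAMD12 (4 each), and BMPER, PIAS1 and PPM1H (3 each).

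Gene-end peaks were spread unevenly over chromosomes. Chromosome 14 had a peak at 24 of 603 genes (3.98%, 2.57 to 5.86%), chromosome 20 at 20 of 537 (3.72%, 2.29 to 5.69%), and chromosome 10 at 23 of 733 (3.14%, 2.0 to 4.67%). On chromosome 7 the share was 2.78% (1.82 to 4.04%). Chromosome 2 had 11 of 1254 (0.877%, 0.439 to 1.56%), chromosome 18 had 1 of 268 and chromosome 21 had 0 of 238 (0 to 1.54%). The intervals of chromosomes 14, 20, 10 and 7 lay above 1.65% and those of chromosomes 2 and 21 below it. The number of chromosome copies in these cells was not part of the data, and its part in this order was not tested. As a share of narrow FLAG peaks, gene ends took 8.56% on chromosome 17 and 7.54% on chromosome 19, against 2.28% on chromosome 5.

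**Figure D5:**
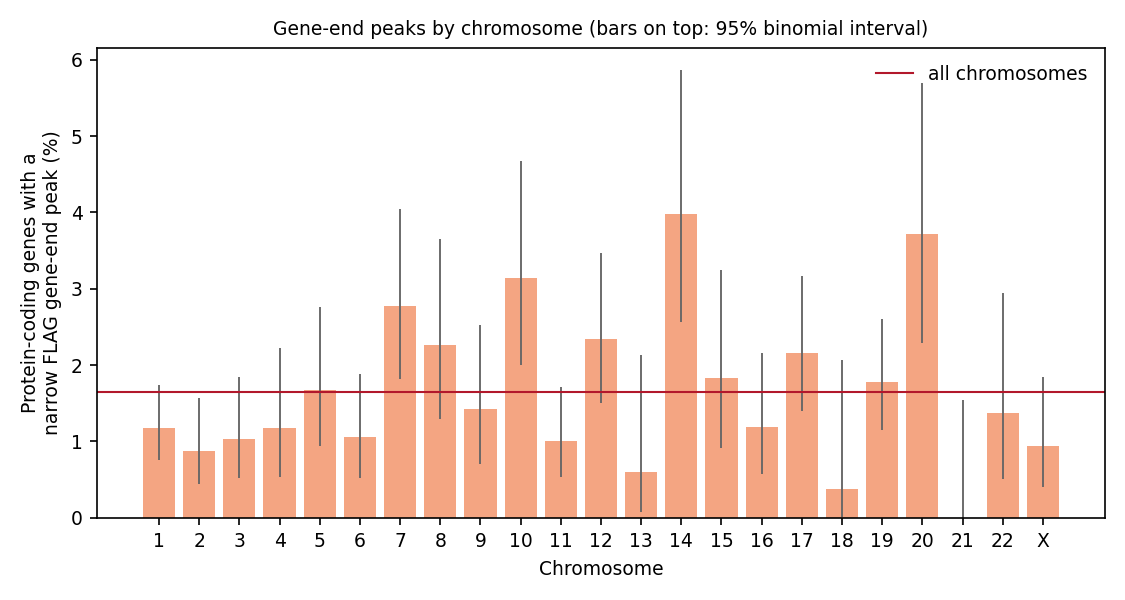
Share of protein-coding genes with a narrow FLAG gene-end peak (vertical axis, percent, from 0) for chromosomes 1 to 22 and X, with exact 95% binomial intervals. The red line marks 1.65% over all chromosomes, with the intervals of chromosomes 14, 20, 10 and 7 above it and those of 2 and 21 below.

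The limits of the rule cut through similar peaks. Just under the width limit lay the peaks of PELI2 (448 bp, 3.59-fold, 9 tags) and ITGB3 (447 bp, 3.80-fold, 9 tags), and just over it those of XKR7 (452 bp, 5.22-fold, 15 tags) and ISG15 (456 bp, 3.56-fold, 8 tags). At the distance limit WSCD2 (987 bp, 2.77-fold) and LOC101929627 (985 bp) were inside, and peaks near RAB18 (1001 bp, 3.14-fold) and PCIF1 (1008 bp, 3.24-fold) outside. The summits closest to an end were those of GLRA1 at 5 bp, SAT2 at 6 bp and STK17A at 10 bp. Wide peaks at gene ends, 31 in number, had a median fold of 3.59 and a q under 0.05 in 48.4%.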

How the data were processed

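FLAG and SMAD3 ChIP-seq of A549 cells gave 2 peak lists. The submitters' processing notes name FastQC 0.11.8, Bowtie2 and MACS2 2.2.7.1, and the build hg38. Each ChIP library was compared with its input at a p cutoff of 0.0065 and 1 tag per position, per the file headers. The authors deposited for each peak a pileup signal in tags, a fold enrichment (ratio) and −log10 p and q values. The headers state that q would not be calculated, and the q column was used as it stands.

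Gene ends came from a RefSeq table of GRCh38.p14 (19817 protein-coding genes). Its 153 protein-coding rows on other sequences of a chromosome were left out. Starts and 3′ ends were told apart by the strand in the RefSeq promoter table. A q under 0.05, an overlap of 1 bp and exact 95% Clopper-Pearson intervals were used (Python 3.11.15, numpy 2.4.6, pandas 2.3.3, scipy 1.17.1). Summits were not sorted into exons, introns or UTRs. On simulated data all 200 planted gene-end peaks were found, and 0 of 1000 placed elsewhere.

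Members and gene lists were chosen with earlier results of these data known. Named genes are the 15 peaks with the highest fold, the 5 with most tags, those with a q under 0.05 or a SMAD3 overlap, up to 6 per list by fold, up to 8 peaks shared between genes, genes with 2 peaks, and peaks nearest the ends and limits. Other names were chosen after seeing values. Some genes that this rule names are not reported here.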

Additional observations from a re-analysis of the deposited data

How the results depend on the processing

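The range over settings is given for the 305 gene-end peaks, and the cause of each move was not tested beyond what a setting itself removes or adds. With the summit within 500 bp, 183 peaks remained (2.23% of narrow peaks, 0.974% of genes), and within 3 kb there were 601 (7.33% and 3.43%). At 3 kb 323 genes with a peak were in a list. A width under 350 bp left 1.34% of genes. At a q under 0.05 there were 35 peaks (1.99% of narrow peaks of that q, 0.182% of genes), with a median fold of 3.95. Starts made up 90.5% of them (19 of 21, since 14 of the 35 peaks have no strand), and 17 of their genes were in a list. At a fold of 4 or more there were 16 (2.33%, 0.0858% of genes), with a median fold of 4.33, starts at 83.3% and a q under 0.05 in 100%. The overlap with SMAD3 was 0 under a width of 350 bp, at a q under 0.05 of either list, and at a fold of 4, but 1.19% (4 of 336) for peaks of any width and 1.31% (4 of 305) with a gap of up to 1 kb. Promoters with CAGCTG alone made up 24.1% and those with CAGATG or CATCTG alone 6.90%. The other 46 main values stayed within their counting interval or within 1.5 times. Counts of single lists moved in 57 cases and did not in 37, with all but 2 of the moves at 3 kb or at a q under 0.05. Gene rows on other sequences, an alternative chosen after seeing the data, gave 307 peaks. Depth limits all of this, since most peaks rest on 7 to 9 tags. No paired analysis was possible because each group holds 1 library.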
